A study of Mus musculus with 24 samples.

Results

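Ribosome production is followed here through 51 genes, of 23420 gene symbols in the count files, in mouse CD4 T cells before and after stimulation. The genes were taken by name, by a rule that uses no measured value, although earlier results of these data were known when the list was made. They were sorted into 6 roles: 6 genes of RNA polymerase I and its factors, 3 genes of box C/D and 4 genes of box H/ACA small nucleolar ribonucleoproteins (snoRNPs), 17 genes of small ribosomal subunit assembly, 15 genes of large subunit assembly, and 6 genes of nucleolar proteins with several roles. Each of the 51 was found in the files and passed the filter on low counts, which 12584 of all genes passed.

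The 24 libraries are bulk RNA sequencing of sorted CD4 T cells, 6 in each of 4 groups. All animals were on a C57BL/6 background and carried 2 transgenes: an Nr4a1-EGFP/cre reporter, in which the Nr4a1 (Nur77) gene's control region drives a green fluorescent protein fused to Cre, and the OT-II TcraTcrb receptor, with which CD4 T cells recognise a peptide of ovalbumin. The label gives the genotype of every library as OT2Nur77GFP+/-, so no group is free of the reporter. Naive cells came from the spleen. Activated naive cells were such cells after 6 hours of stimulation, with an agent that the labels do not name. TH1 effector cells were naive cells cultured toward the TH1 fate for 5 days, and reactivated TH1 cells were those cells after a further 6 hours with macrophages carrying antigen. The means of stimulation therefore cannot be told apart from the cells stimulated wherever the stimulated groups are compared. Whether separate animals or cultures stand behind the 6 libraries of a group is not stated, so every p-value rests on the spread of these libraries, which may be technical.

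A ribosome starts as a long precursor RNA that RNA polymerase I transcribes in the nucleolus from repeated ribosomal DNA. Box C/D and box H/ACA snoRNPs place methyl groups and pseudouridines on that precursor, and assembly factors cut and fold it and load ribosomal proteins until the small and large subunits leave the nucleus. A resting T cell keeps this machinery low, and its induction after antigen is a known early step on the way to growth and division, with the transcription factor MYC among its known regulators.

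The libraries held 18457653 to 34262645 counts given to genes. Levels are in CPM, the counts of a gene scaled to a common library size of 1000000. The 8 T cell markers summed to between 3025 and 5034 CPM in every library. TH1 markers (Ifng, Tbx21, Cxcr3 and Il12rb2) summed to 0.624 to 1.14 CPM in naive and 86.8 to 109 CPM in activated naive libraries. Their sum was 1003 to 1523 CPM in TH1 effector and 9621 to 19623 CPM in reactivated TH1 libraries, so it rose with stimulation as well. The 14 macrophage markers summed to 8.17 to 12.7 CPM in naive, 10.2 to 12.0 in activated naive, 3.63 to 5.29 in TH1 effector and 12.1 to 18.2 in reactivated TH1 libraries. Of those 14, none was at 0 in reactivated TH1 cells, whereas 4, 4 and 6 were at 0 in all libraries of the other groups in the same order, C1qa among them each time. The 6 dendritic cell markers summed to 0.235 to 3.60 CPM over the first 3 groups and to 7.09 to 10.6 CPM in reactivated TH1 cells, with Xcr1 at 0 in every group. The 5 markers of CD8 and NK cells summed to 23.7 to 31.1, 4.97 to 11.0, 4.74 to 7.23 and 40.6 to 76.2 CPM in the same order. B cell markers stayed at or below 3.81 CPM in naive, activated naive and reactivated TH1 libraries and reached 27.6 CPM in 1 TH1 effector library. The part of these other cells in the results was not tested. In bulk RNA, fewer cells that express a gene and less of its RNA per cell cannot be told apart. CPM is also relative to the other RNA of a library, so a fall or rise in CPM need not be one per cell.

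The summed level of the 51 genes, in TMM-scaled CPM, was on average 5.12 times as high in activated naive as in naive cells. Their summed level was 4561, 4625 and 4722 CPM (lowest, median and highest library) in naive, 22497, 23596 and 25449 in activated naive, 7099, 7935 and 8241 in TH1 effector and 20281, 21655 and 22903 in reactivated TH1 cells. As a median share of all gene counts this is 0.493%, 2.22%, 0.827% and 2.08%. The 4 groups did not overlap except the stimulated pair, where the highest reactivated TH1 library stood above the lowest activated naive ones. TH1 effector libraries lay between naive and stimulated cells, at 1.68 times the naive mean. Reactivation brought the sum to 2.79 times the effector mean, and to 0.916 times the activated naive mean.

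**Figure D1:**
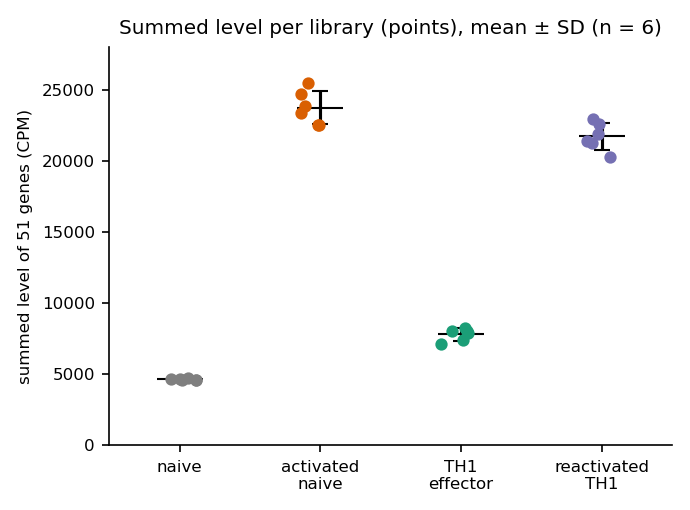
Summed level of the 51 genes in CPM (vertical axis) for each of the 24 libraries by group; points are libraries, horizontal bars the mean and error bars the SD of 6 libraries. Naive libraries sit between 4561 and 4722 CPM, TH1 effector libraries between 7099 and 8241, and both stimulated groups at 20281 or above.

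Most genes differ between these cell states: 81.9% of those tested on activation, 79.7% on reactivation, 84.9% between effector and naive, 79.8% between the stimulated groups and 86.9% between effector and activated naive cells (edgeR's quasi-likelihood test with Benjamini-Hochberg adjustment, adjusted p under 0.05). A call alone therefore says little about a gene, and direction and size carry the description. All 51 genes passed on activation and on reactivation. On activation of naive cells 50 of the 51 genes rose and 1 fell, where 41.3% of all genes tested rose and 40.5% fell. All 50 rose by at least 2-fold, as did 21.2% of all genes. The median log2 fold change was 2.30 over the 51 genes and 0.00 over all genes tested. In 50 genes every activated naive library stood above every naive one, and in the remaining gene, Ubtf, every one stood below (33.3% and 33% of all genes). On reactivation of TH1 cells all 51 rose, against 39.9% of all genes (fell: 0 of 51, against 39.8%), and 48 rose by at least 2-fold, against 13.3%. Their median was 1.49, and in all 51 the libraries did not overlap, as in 30% of all genes. The 3 that rose by less than 2-fold were Polr1c, Nob1 and Rrn3. Within the first sequencing run alone and within the second alone, 51 of 51 genes passed the test in both responses.

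**Figure D2:**
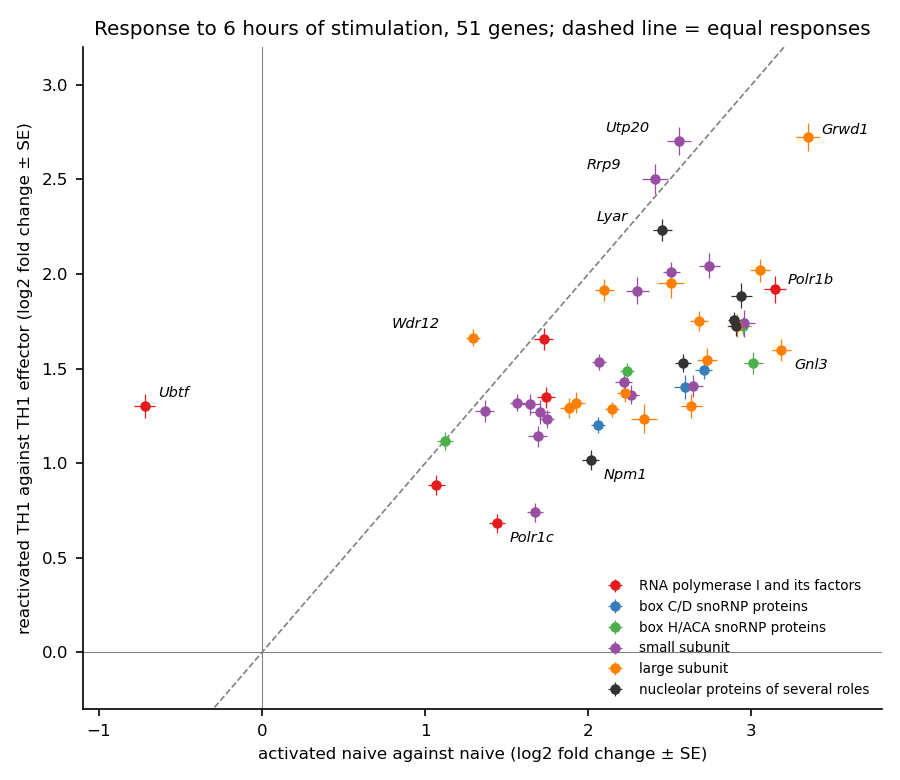
Log2 fold change on activation of naive cells (horizontal axis) and on reactivation of TH1 cells (vertical axis) for the 51 genes, coloured by role, with bars of 1 SE; the dashed line marks equal responses and the 2 axes share no library. Most points lie below the line, Wdr12, Utp20 and Rrp9 lie above it, and Ubtf stands alone on the left, lower in activated naive cells and higher in reactivated TH1 cells.

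RNA polymerase I and its factors changed unevenly. Polr1a and Polr1b encode the 2 largest subunits, which form the catalytic core. Polr1a ran from 98.8 to 112 CPM (median 107) in naive and from 316 to 392 (median 342) in activated naive libraries. It ran from 82.9 to 94.1 (median 91.5) in TH1 effector and from 260.1 to 324 (median 274) in reactivated TH1 libraries. The stimulated groups overlapped each other and stood above the naive and TH1 effector groups, and effector libraries were all below naive ones. Activation raised Polr1a 3.31-fold (log2 fold change 1.73, SE 0.059, adjusted p = 3.16e-19). Reactivation raised it 3.15-fold (log2 fold change 1.66, SE 0.059, adjusted p = 3.17e-18). Polr1b lay from 40.5 to 47.1 CPM (median 42.7) in naive and from 356 to 419 (median 371) in activated naive libraries. It lay from 43.5 to 59.9 (median 52.2) in TH1 effector and from 166.8 to 220.4 (median 196) in reactivated TH1 libraries. Polr1b thus reached a clearly higher level in activated naive cells than in any reactivated TH1 library. Its rise was 8.84-fold on activation (log2 fold change 3.14, SE 0.07, adjusted p = 8.55e-23) and 3.78-fold on reactivation (log2 fold change 1.92, SE 0.07, adjusted p = 2.74e-18). Polr1c ran from 28.4 to 34.6 CPM (median 31.9) in naive and from 78.6 to 90.5 (median 86.5) in activated naive libraries. It ran from 54.1 to 64.9 (median 59.8) in TH1 effector and from 90.6 to 108 (median 94.7) in reactivated TH1 libraries. This subunit, which RNA polymerase III also uses, was highest in reactivated TH1 cells. The rise of Polr1c was 2.71-fold on activation and 1.60-fold on reactivation, the latter the smallest of the 51 genes. Polr1e, a further polymerase I subunit, rose 3.34-fold and 2.55-fold. Rrn3, the initiation factor that brings the polymerase to the ribosomal promoter, rose 2.10-fold from a naive median of 73.4 CPM and 1.85-fold from an effector median of 74.0 CPM.

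Ubtf, the upstream binding factor that coats active ribosomal DNA, was the single gene with opposite responses. Ubtf lay from 224 to 261 CPM (median 242.5) in naive and from 122 to 182 (median 146) in activated naive libraries. It lay from 166.4 to 187 (median 174) in TH1 effector and from 381 to 479 (median 423) in reactivated TH1 libraries. All activated naive libraries were below all naive ones, and all reactivated TH1 libraries were above every other library. Ubtf fell by 0.72 on the log2 scale on activation of naive cells (SE 0.064, adjusted p = 7.9e-11) and rose by 1.30 on reactivation of TH1 cells (SE 0.064, adjusted p = 1.01e-15). The difference between both responses was 2.02 (SE 0.09, adjusted p = 4.68e-16). Counts per gene cannot separate the 2 protein forms that Ubtf is known to give by splicing. Ubtf was also 1.39-fold lower in TH1 effector than in naive cells.

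The snoRNP proteins rose in both responses, 7 of 7 genes each time. Fbl (fibrillarin) is the methyltransferase of box C/D snoRNPs, and Nop56 and Nop58 are its scaffold partners. Fbl ran from 68.7 to 82.2 CPM (median 79.1) in naive and from 427 to 500.4 (median 475) in activated naive libraries. It ran from 99.9 to 145 (median 129) in TH1 effector and from 316 to 347 (median 328) in reactivated TH1 libraries. Its 4 groups did not overlap, and activated naive cells were highest. Fbl rose 6.02-fold on activation (log2 fold change 2.59, SE 0.066, adjusted p = 6.96e-22) and 2.64-fold on reactivation (log2 fold change 1.40, SE 0.066, adjusted p = 2.74e-16). Nop56 lay from 154 to 177 CPM (median 163.98) in naive and from 653 to 723 (median 674) in activated naive libraries. It lay from 294 to 371 (median 336) in TH1 effector and from 695 to 824 (median 761) in reactivated TH1 libraries. For Nop56 the order of the stimulated groups was the other way round, with some overlap. Nop58 ran from 84.6 to 103 CPM (median 90.7) in naive and from 543 to 640.5 (median 609.7) in activated naive libraries. It ran from 193 to 229 (median 202) in TH1 effector and from 546 to 617 (median 573) in reactivated TH1 libraries. For Nop58 the reactivated TH1 range lay within the activated naive range.

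Dkc1 (dyskerin) is the pseudouridine synthase of box H/ACA snoRNPs, with Gar1, Nhp2 and Nop10 as its core partners. Dkc1 lay from 63.9 to 78.7 CPM (median 68.8) in naive and from 320.1 to 348 (median 332) in activated naive libraries. It lay from 116 to 145 (median 134) in TH1 effector and from 344 to 395 (median 368) in reactivated TH1 libraries. Its rise was 4.71-fold on activation (log2 fold change 2.24, SE 0.043, adjusted p = 4.06e-23) and 2.80-fold on reactivation (log2 fold change 1.49, SE 0.043, adjusted p = 3.38e-19). Nhp2 ran from 17.3 to 21.3 CPM (median 18.9) in naive and from 139 to 173 (median 152) in activated naive libraries. It ran from 61.8 to 83.4 (median 77.8) in TH1 effector and from 199.5 to 234.8 (median 218) in reactivated TH1 libraries. The 4 groups of Nhp2 did not overlap, in the order naive, TH1 effector, activated naive, reactivated TH1. Nhp2 rose 8.06-fold on activation, 2.88-fold on reactivation, and was already 3.92-fold above naive in effector cells. Gar1 lay from 18.5 to 20.9 CPM (median 19.5) in naive and from 148 to 158.7 (median 151) in activated naive libraries. It lay from 36.8 to 47.9 (median 39.5) in TH1 effector and from 129 to 137 (median 132) in reactivated TH1 libraries. Activated naive libraries were the highest for Gar1 and none overlapped reactivated TH1 libraries. Nop10 ran from 35.3 to 39.8 CPM (median 37.7) in naive and from 75.3 to 88.3 (median 82.0) in activated naive libraries. It ran from 33.9 to 36.5 (median 35.1) in TH1 effector and from 68.7 to 89.1 (median 76.4) in reactivated TH1 libraries. Nop10 rose 2.18-fold on activation and 2.17-fold on reactivation, the difference of the log2 responses having a 95% interval of -0.15 to 0.14. The box H/ACA core therefore held both the gene with the largest effector excess over naive cells, Nhp2, and one with none detected, Nop10.

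All 17 genes of small subunit assembly rose in both responses, by 2.57 to 7.74-fold on activation and 1.67 to 6.51-fold on reactivation. Utp20 and Heatr1 encode very large scaffold proteins of the small subunit processome, the particle that forms on the precursor as it is transcribed. Utp20 lay from 92.0 to 115 CPM (median 98.4) in naive and from 526 to 669 (median 588) in activated naive libraries. It lay from 56.6 to 68.6 (median 58.8) in TH1 effector and from 346 to 441 (median 394) in reactivated TH1 libraries. None of the 4 groups of Utp20 overlapped, and effector cells were the lowest. Utp20 rose 5.88-fold on activation (log2 fold change 2.56, SE 0.073, adjusted p = 7.78e-21) and 6.51-fold on reactivation (log2 fold change 2.70, SE 0.073, adjusted p = 2.7e-20). Heatr1 ran from 112 to 128 CPM (median 123) in naive and from 642 to 741 (median 689.7) in activated naive libraries. It ran from 88.9 to 103 (median 93.9) in TH1 effector and from 339 to 439.7 (median 374) in reactivated TH1 libraries. The same order held, with activated naive cells far above reactivated TH1 cells. Rrp9 lay from 34.8 to 46.8 CPM (median 42.2) in naive and from 185 to 244 (median 233.3) in activated naive libraries. It lay from 27.3 to 39.3 (median 36.8) in TH1 effector and from 177 to 205 (median 202) in reactivated TH1 libraries. Rrp9, a protein of the U3 snoRNP that guides processome assembly, overlapped between the stimulated groups and between the naive and TH1 effector groups. Rrp12 ran from 34.0 to 43.4 CPM (median 39.9) in naive and from 275 to 320.2 (median 305) in activated naive libraries. It ran from 41.7 to 56.2 (median 51.2) in TH1 effector and from 158.7 to 196 (median 163.6) in reactivated TH1 libraries. Rrp12, an export and maturation factor, had the largest rise of the role on activation, 7.74-fold.

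Late small subunit factors act on particles that are leaving or have left the nucleolus. Tsr1 lay from 73.9 to 81.0 CPM (median 78.1) in naive and from 452 to 519.9 (median 486) in activated naive libraries. It lay from 98.0 to 127 (median 106) in TH1 effector and from 254 to 311 (median 291) in reactivated TH1 libraries. Tsr1, a GTPase-like factor of the cytoplasmic particle, did not overlap between any of the 4 groups. Tsr1 shares 1240 exon bases with Srr on the other strand in GENCODE M21, and no source says whether the counting used strand, so its counts may include reads of Srr. Bysl ran from 21.4 to 29.8 CPM (median 27.96) in naive and from 157.4 to 201 (median 184) in activated naive libraries. It ran from 32.6 to 40.7 (median 34.7) in TH1 effector and from 132 to 150.04 (median 149) in reactivated TH1 libraries. Bysl, which is needed for late processing of the small subunit precursor, likewise shares 361 exon bases with Ccnd3. Nob1 lay from 41.6 to 52.9 CPM (median 49.0) in naive and from 142 to 165.2 (median 153) in activated naive libraries. It lay from 55.0 to 74.2 (median 67.8) in TH1 effector and from 97.3 to 118 (median 110.1) in reactivated TH1 libraries. Nob1, the nuclease that makes the last cut of the 18S precursor, had the smallest rise of this role on reactivation, 1.67-fold. Noc4l ran from 34.2 to 40.8 CPM (median 39.6) in naive and from 166.1 to 195 (median 181) in activated naive libraries. It ran from 63.8 to 83.7 (median 78.6) in TH1 effector and from 195 to 214 (median 208) in reactivated TH1 libraries. Noc4l, the partner of Nop14 in the processome, was the only gene of the role that was higher in reactivated TH1 than in activated naive cells past the test. Among the other members of the role, Utp18, Utp15, Utp6, Wdr43, Wdr75, Imp4, Nop14, Ltv1 and Ddx10, rises were 2.57 to 4.93-fold on activation and 2.21 to 3.76-fold on reactivation.

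All 15 genes of large subunit assembly rose in both responses as well, by 2.45 to 10.2-fold and 2.36 to 6.601-fold. Grwd1, a chaperone of a large subunit protein, had the largest rise of the 51 genes in each. Grwd1 lay from 19.4 to 27.7 CPM (median 24.02) in naive and from 225 to 269 (median 239.1) in activated naive libraries. It lay from 16.7 to 24.01 (median 22.3) in TH1 effector and from 126 to 148 (median 142) in reactivated TH1 libraries. The naive and TH1 effector groups overlapped from 19.4 to 24.01 CPM, and every stimulated library was at 126 CPM or more. Grwd1 rose 10.2-fold on activation (log2 fold change 3.35, SE 0.073, adjusted p = 3.8e-23) and 6.601-fold on reactivation (log2 fold change 2.72, SE 0.073, adjusted p = 1.41e-20). Gnl3 ran from 57.5 to 68.3 CPM (median 63.3) in naive and from 526 to 601 (median 579) in activated naive libraries. It ran from 109.9 to 138 (median 119) in TH1 effector and from 326 to 402 (median 366) in reactivated TH1 libraries. Gnl3 (nucleostemin), a nucleolar GTPase, did not overlap between any groups and was highest in activated naive cells. Mrto4 lay from 23.5 to 28.1 CPM (median 26.4) in naive and from 185 to 241.4 (median 222) in activated naive libraries. It lay from 39.4 to 60.1 (median 51.6) in TH1 effector and from 183 to 230.5 (median 206) in reactivated TH1 libraries. Mrto4, which holds the place of a stalk protein on the pre-60S particle, overlapped between the stimulated groups. GENCODE M21 names 2 pseudogenes of Mrto4, so reads shared with them are uncertain. Nle1 ran from 29.4 to 40.7 CPM (median 35.4) in naive and from 187 to 214 (median 199) in activated naive libraries. It ran from 20.8 to 29.1 (median 26.5) in TH1 effector and from 87.9 to 105 (median 99.9) in reactivated TH1 libraries. Nle1, which recruits a remodelling ATPase to the pre-60S particle, was lowest in effector cells, and its activated naive libraries all stood above its reactivated TH1 libraries.

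Bop1, Pes1 and Wdr12 form 1 complex of large subunit maturation, and their transcripts differed in order. Wdr12 lay from 43.7 to 48.3 CPM (median 46.0) in naive and from 102 to 119 (median 116) in activated naive libraries. It lay from 40.7 to 48.2 (median 43.8) in TH1 effector and from 132 to 150.3 (median 138) in reactivated TH1 libraries. Reactivated TH1 libraries were all above activated naive ones, and the naive and TH1 effector groups overlapped. Wdr12 rose 2.45-fold on activation and 3.17-fold on reactivation, and was the only gene besides Ubtf whose response was larger in TH1 cells past the test. Pes1 ran from 73.6 to 77.4 CPM (median 76.6) in naive and from 303 to 361 (median 335) in activated naive libraries. It ran from 99.1 to 112 (median 109) in TH1 effector and from 238.98 to 276 (median 263) in reactivated TH1 libraries. Bop1 lay from 60.9 to 77.6 CPM (median 68.9) in naive and from 227 to 277 (median 259) in activated naive libraries. It lay from 77.2 to 95.5 (median 85.8) in TH1 effector and from 183 to 223 (median 212) in reactivated TH1 libraries. Both partners were higher in activated naive than in reactivated TH1 cells. Ebna1bp2 ran from 47.2 to 55.4 CPM (median 50.7) in naive and from 177 to 248 (median 219) in activated naive libraries. It ran from 70.3 to 100.02 (median 87.4) in TH1 effector and from 291 to 343 (median 329.7) in reactivated TH1 libraries. Ebna1bp2, a pre-60S assembly factor, had no overlap between the stimulated groups and was highest in reactivated TH1 cells. Nop16 lay from 13.8 to 18.6 CPM (median 17.1) in naive and from 116 to 138 (median 126) in activated naive libraries. It lay from 31.4 to 46.4 (median 39.3) in TH1 effector and from 116 to 146 (median 127) in reactivated TH1 libraries. For Nop16, a nucleolar pre-60S protein with the lowest naive level in CPM of the 51 genes, the stimulated groups covered nearly the same range. Rrp1b, Rrs1, Noc2l, Gnl2, Nip7 and Nop2 rose 3.801 to 6.63-fold on activation and 2.36 to 3.37-fold on reactivation. Noc2l shares 598 exon bases with Samd11 on the other strand.

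Ncl (nucleolin) and Npm1 (nucleophosmin), abundant RNA-binding proteins of the nucleolus, gave the largest share of the summed level. Ncl ran from 528 to 616 CPM (median 592) in naive and from 3880.5 to 4814 (median 4356) in activated naive libraries. It ran from 1222 to 1438 (median 1309) in TH1 effector and from 4101 to 4728 (median 4289) in reactivated TH1 libraries. The stimulated groups overlapped almost fully, and effector libraries lay between them and naive libraries. Ncl rose 7.49-fold on activation (log2 fold change 2.90, SE 0.051, adjusted p = 5.64e-24) and 3.31-fold on reactivation (log2 fold change 1.72, SE 0.051, adjusted p = 1.92e-19). Npm1 lay from 459.7 to 561 CPM (median 508) in naive and from 1799.5 to 2255 (median 2059) in activated naive libraries. It lay from 1501 to 1754 (median 1665) in TH1 effector and from 3090.0 to 3568 (median 3363) in reactivated TH1 libraries. Npm1 followed another order, with no overlap between any groups and reactivated TH1 cells highest. Npm1 rose 4.04-fold on activation (log2 fold change 2.02, SE 0.052, adjusted p = 2.95e-21) and 2.02-fold on reactivation (log2 fold change 1.02, SE 0.052, adjusted p = 6.31e-15). Per kilobase of exon, on the scale of CPM per kb, Npm1 had the highest level of the 51 genes in each group, with medians of 191, 773, 625 and 1262. Ncl was next with 58.1, 428, 129 and 421. The length used is that of all annotated exons merged, 10188 bases for Ncl and 2665 for Npm1, which can exceed that of a transcript. This order therefore depends on the annotation, and in CPM Ncl had the higher median in every group but TH1 effector cells. Npm1 has processed pseudogenes, and reads shared with them are uncertain.

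The other 4 nucleolar proteins were Nolc1, a chaperone of snoRNPs, Mybbp1a, Ddx21, an RNA helicase, and Lyar. Nolc1 ran from 103 to 114 CPM (median 112) in naive and from 757 to 891 (median 829) in activated naive libraries. It ran from 168.4 to 211 (median 189) in TH1 effector and from 580.1 to 669 (median 649) in reactivated TH1 libraries. Mybbp1a lay from 188 to 217 CPM (median 205) in naive and from 1425 to 1685 (median 1513) in activated naive libraries. It lay from 271 to 351 (median 345) in TH1 effector and from 1014 to 1305 (median 1255) in reactivated TH1 libraries. In both genes the activated naive libraries were all above the reactivated TH1 libraries. Lyar ran from 24.7 to 30.9 CPM (median 27.4) in naive and from 128 to 165.8 (median 149) in activated naive libraries. It ran from 38.4 to 56.4 (median 45.3) in TH1 effector and from 191 to 234.6 (median 215) in reactivated TH1 libraries. Lyar was higher in every reactivated TH1 library than in any activated naive library. Nolc1 rose 7.44-fold on activation and 3.38-fold on reactivation. Mybbp1a rose 7.67-fold and 3.69-fold, Ddx21 5.98-fold and 2.88-fold, and Lyar 5.48-fold and 4.69-fold.

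**Figure D3:**
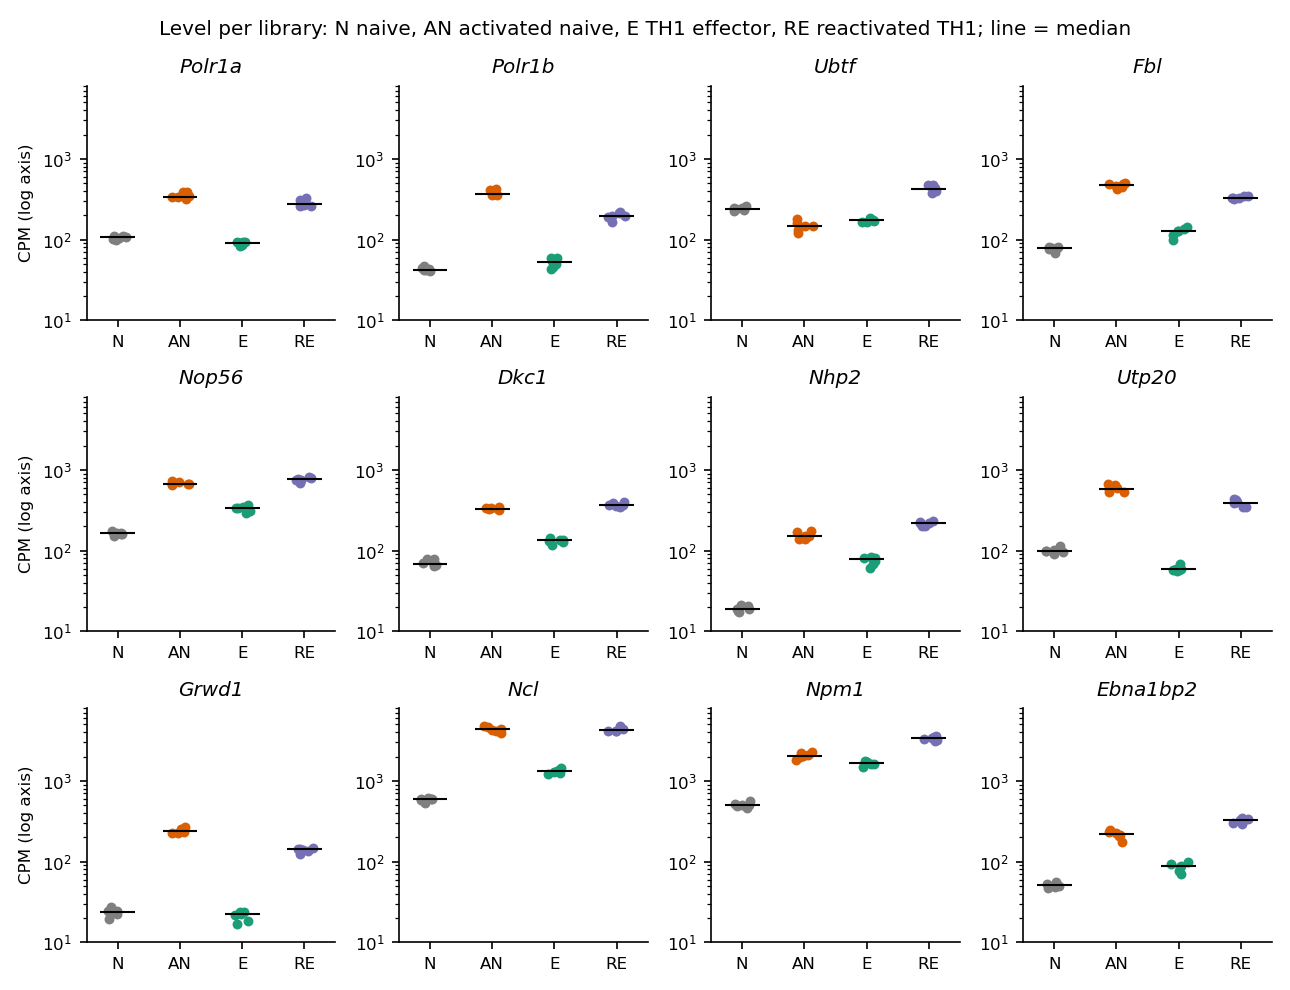
Level of 12 of the genes in CPM (vertical log axis) in each library; points are libraries, lines the median of 6, and N, AN, E and RE stand for naive, activated naive, TH1 effector and reactivated TH1 cells. Ubtf is the one panel in which the activated naive median is the lowest, and beside it Nhp2, Npm1, Nop56, Dkc1 and Ebna1bp2 are panels in which the reactivated TH1 median is the highest.

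Since nearly all of the genes rose together, their promoters were read for CACGTG, the core of the E-box that MYC and other helix-loop-helix factors recognise, which is its own reverse complement. RefSeq windows (GRCm38.p6, the build of the files, from 250 bases before to 50 bases after the start of a transcript) were found for 44 of the 51 genes. CACGTG was in 12 of them (27.3%), against 12.0% of the 9328 tested genes with a window and 8.09% of all 27025 genes with one. The 5 with the largest rise on activation of naive cells are shown, 5′ to 3′ in the direction of the gene, with CACGTG in capitals: Grwd1 chr7:45830740-45831039 (minus strand), Mybbp1a chr11:72441077-72441376 (plus strand), Nop2 chr6:125131633-125131932 (plus strand), Tsr1 chr11:74897830-74898129 (plus strand), Utp20 chr10:88826765-88827064 (minus strand).
Grwd1: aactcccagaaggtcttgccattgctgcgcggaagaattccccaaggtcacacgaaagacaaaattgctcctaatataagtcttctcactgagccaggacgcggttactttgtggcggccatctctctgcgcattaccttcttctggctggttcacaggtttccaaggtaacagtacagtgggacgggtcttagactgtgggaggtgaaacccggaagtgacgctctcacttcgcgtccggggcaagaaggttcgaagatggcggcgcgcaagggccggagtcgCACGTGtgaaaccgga
Mybbp1a: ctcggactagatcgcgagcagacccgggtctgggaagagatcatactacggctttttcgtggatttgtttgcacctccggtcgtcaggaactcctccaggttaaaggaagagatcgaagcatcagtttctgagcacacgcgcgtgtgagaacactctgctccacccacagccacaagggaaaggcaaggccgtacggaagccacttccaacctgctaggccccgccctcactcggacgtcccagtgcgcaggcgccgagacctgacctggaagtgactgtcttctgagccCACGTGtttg
Nop2: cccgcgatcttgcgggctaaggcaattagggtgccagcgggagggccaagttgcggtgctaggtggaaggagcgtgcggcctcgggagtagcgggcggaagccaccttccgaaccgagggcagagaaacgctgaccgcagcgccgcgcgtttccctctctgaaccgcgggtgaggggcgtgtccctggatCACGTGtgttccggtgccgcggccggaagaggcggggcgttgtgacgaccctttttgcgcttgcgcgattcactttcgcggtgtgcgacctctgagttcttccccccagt
Tsr1: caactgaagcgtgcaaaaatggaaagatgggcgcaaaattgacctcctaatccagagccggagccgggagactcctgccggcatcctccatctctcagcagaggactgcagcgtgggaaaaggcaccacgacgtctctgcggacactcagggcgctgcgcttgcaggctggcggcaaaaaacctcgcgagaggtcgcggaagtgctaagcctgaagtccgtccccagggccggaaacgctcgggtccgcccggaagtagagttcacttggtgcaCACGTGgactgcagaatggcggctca
Utp20: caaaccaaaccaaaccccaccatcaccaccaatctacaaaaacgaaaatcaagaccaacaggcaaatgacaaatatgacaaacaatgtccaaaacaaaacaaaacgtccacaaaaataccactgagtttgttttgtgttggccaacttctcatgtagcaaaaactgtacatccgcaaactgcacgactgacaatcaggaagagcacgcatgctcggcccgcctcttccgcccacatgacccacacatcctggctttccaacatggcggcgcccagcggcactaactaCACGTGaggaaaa
The first base of the motif lies 34 bases after the start site in Grwd1, 40 in Mybbp1a, 24 in Tsr1 and 37 in Utp20, and 60 bases before it in Nop2. By role, CACGTG was in 6 of 15 small subunit windows, 4 of 12 large subunit windows, 1 of 6 of RNA polymerase I (Rrn3), 1 of 5 of the nucleolar proteins (Mybbp1a), and none of the 6 snoRNP windows. A match is a string of letters and not a measured site. On activation of naive cells the median log2 fold change was 2.40 in the 12 genes with CACGTG and 2.29 in the 32 without, and on reactivation of TH1 cells 1.48 and 1.53. In TH1 effector against naive cells the medians were further apart, 0.17 with and 0.68 without. In reactivated TH1 against activated naive cells they were -0.42 and -0.19. The difference between genes with and without the motif was not tested. A longer motif, CCGGAAGT on either strand, the core that ETS factors recognise, was also in 12 of 44 genes (27.3%), against 9.29% of tested genes.

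TH1 effector cells against naive cells compared the groups without the 6 hours of stimulation, on either side of differentiation. The labels do not say whether the effector cells were at rest. Most snoRNP proteins, all 6 nucleolar proteins and most large subunit factors were higher in effector cells, and Utp20 and Heatr1, large scaffolds of the processome, and parts of the polymerase I machinery were lower. Of the 51 genes 34 were higher, 9 were lower and 8 did not pass the test, where 44.6% of all genes were higher and 40.3% lower. The libraries did not overlap in 29 higher and 6 lower genes (36.8% and 32.1% of all genes). In 8 genes the excess was at least 2-fold, which 25.2% of all genes reached. The median log2 fold change was 0.47, against 0.06 over all genes. By role, 6 of 6 nucleolar proteins, 3 of 3 box C/D and 3 of 4 box H/ACA proteins, and 12 of 15 large subunit factors were higher. Among small subunit factors 8 of 17 were higher and 4 lower, and of the 6 polymerase I genes Polr1b and Polr1c were higher and Polr1a, Polr1e and Ubtf lower.

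The largest excess in effector cells was that of Nhp2 (3.92-fold, log2 fold change 1.97, SE 0.058, adjusted p = 5.03e-20). Npm1 followed at 3.24-fold, then Nop16 at 2.31-fold, Ncl at 2.25-fold, Nop58 at 2.23-fold and Gar1 at 2.04-fold. The largest deficit was that of Utp20 (1.67-fold lower, log2 fold change -0.74, SE 0.073, adjusted p = 5.63e-10). Next came Ubtf at 1.39-fold lower, Nle1 at 1.38-fold, Heatr1 at 1.29-fold, Rrp9 at 1.21-fold and Polr1e at 1.21-fold. Polr1a was 1.18-fold lower, Polr1b 1.21-fold and Polr1c 1.90-fold higher, Fbl 1.61-fold and Dkc1 1.87-fold higher. The 8 genes that did not pass were Rrn3, Nop10, Utp15, Utp6, Imp4, Nop14, Ddx10 and Wdr12, with log2 fold changes from -0.09 to 0.12. For Nop14 the 95% interval of the difference in mean log2 CPM was -0.11 to 0.09, and for Imp4 it was -0.00 to 0.23. Within the first run 35 genes were higher and 8 lower, and within the second 31 and 8. Grwd1 did not pass within the first run (adjusted p = 0.737), nor Gnl2, Ltv1, Polr1b and Wdr75 within the second (adjusted p from 0.0894 to 0.287), and without numbers 5 and 6 the calls of Grwd1 and Utp18 were lost (adjusted p = 0.419 and 0.0791). Leaving out 1 number ended the call of Grwd1 (numbers 5 or 6, adjusted p up to 0.270) and of Wdr75 (2 or 4, up to 0.221), and gave calls for Utp15 (without 4) and Imp4 (without 6). Against a minimum change of 1.5-fold, 20 genes were called higher and 1, Utp20, lower.

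**Figure D4:**
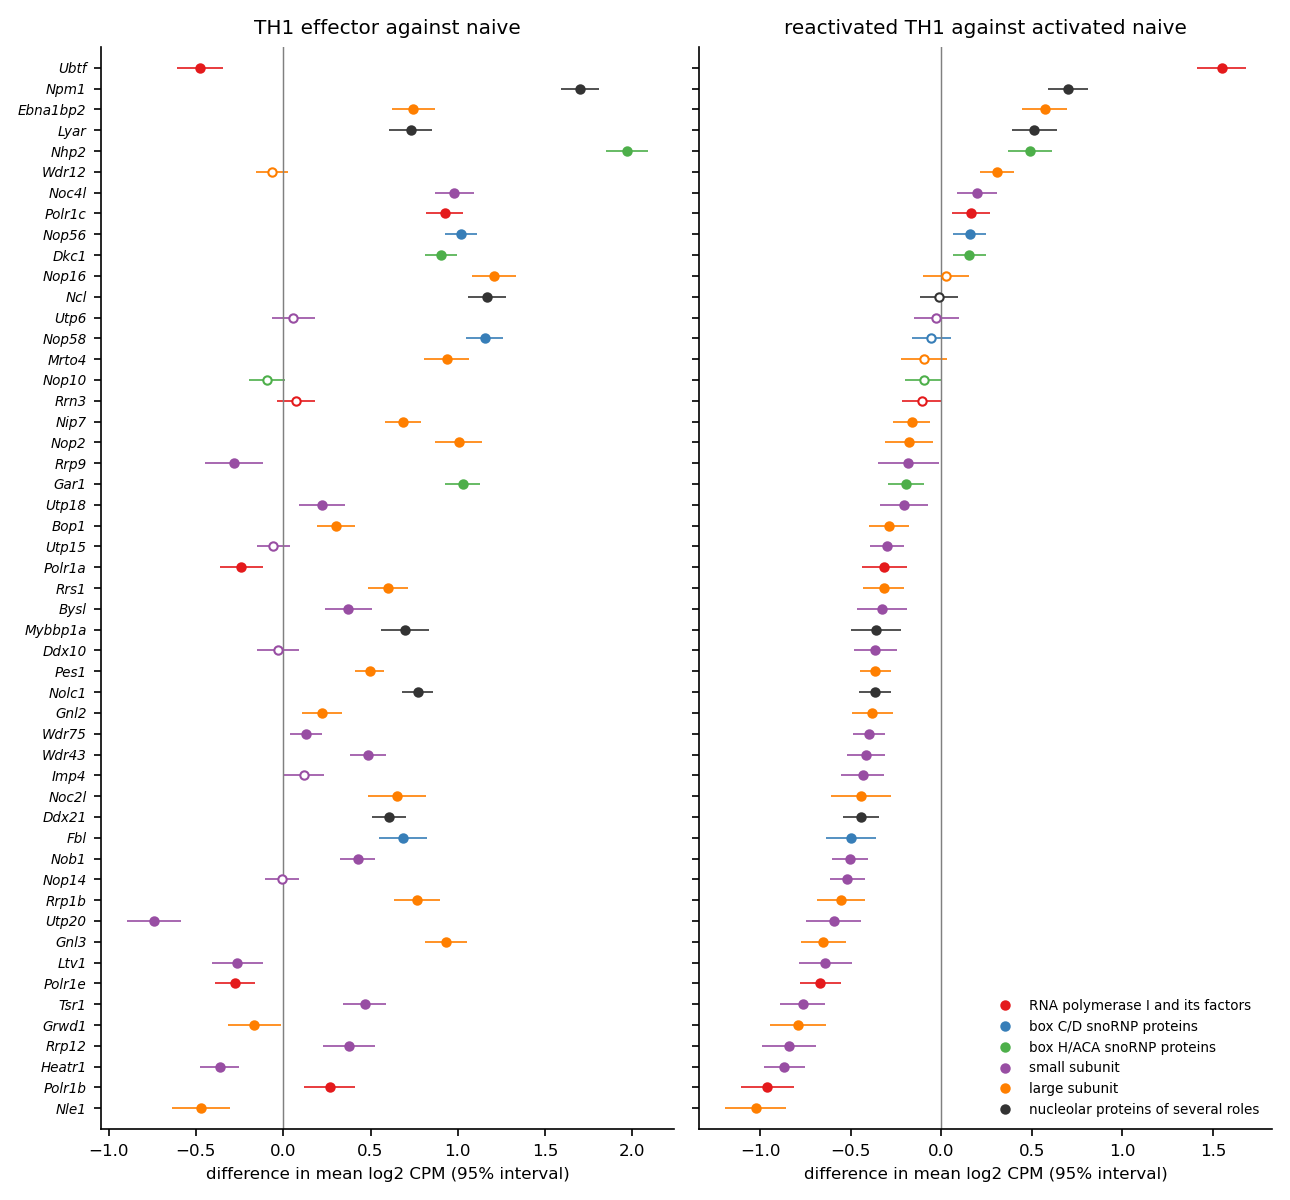
Difference in mean log2 CPM with its 95% interval (horizontal axis) for the 51 genes (vertical axis, ordered by the right panel) between TH1 effector and naive cells (left) and between reactivated TH1 and activated naive cells (right), coloured by role; filled points passed edgeR's test and open points did not. On the left 34 genes are filled to the right of 0 and 9 to the left, and on the right panel 10 and 34.

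Reactivated TH1 cells against activated naive cells compared the levels reached after 6 hours of stimulation. Most assembly factors stood lower in reactivated TH1 cells, and 10 genes, Ubtf and Npm1 among them, stood higher. In all, 34 of 51 genes were lower, 10 higher and 7 without a call, where 36.4% of all genes were lower and 43.4% higher. The libraries did not overlap in 28 lower and 7 higher genes (26.5% and 33.7% of all genes). The median log2 fold change was -0.32, against 0.08 over all genes. Lower genes made up 15 of 17 in small subunit and 11 of 15 in large subunit assembly, 3 of 6 in polymerase I and its factors, 3 of 6 nucleolar proteins, and 1 each of the box C/D and box H/ACA proteins.

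The 10 higher genes were led by Ubtf (2.91-fold, log2 fold change 1.54, SE 0.064, adjusted p = 3.14e-17). Npm1 was 1.62-fold, Ebna1bp2 1.48-fold, Lyar 1.43-fold, Nhp2 1.40-fold and Wdr12 1.24-fold higher. Noc4l, Polr1c, Nop56 and Dkc1 were 1.11 to 1.15-fold higher. Of these small differences, Nop56 did not pass within the first run (adjusted p = 0.0968), and Polr1c and Dkc1 did not within the second (adjusted p = 0.157 and 0.0564). Without numbers 5 and 6, Noc4l, Nop56 and Dkc1 did not pass (adjusted p = 0.119, 0.275 and 0.116). The largest deficits were those of Nle1 (2.03-fold lower, log2 fold change -1.02, SE 0.08, adjusted p = 3.41e-12) and Polr1b (1.94-fold lower, log2 fold change -0.95, SE 0.07, adjusted p = 1.58e-12). Heatr1 was 1.82-fold, Rrp12 1.79-fold, Grwd1 1.73-fold and Tsr1 1.70-fold lower. Polr1e was 1.59-fold, Polr1a 1.24-fold and Fbl 1.41-fold lower. Genes without a call were Rrn3, Nop58, Nop10, Utp6, Mrto4, Nop16 and Ncl, and the 95% interval for Ncl was -0.12 to 0.09 in log2 CPM. Within the first run 9 genes were higher and 35 lower, and within the second 8 and 29. Of the lower genes, Nip7, Nop2, Polr1a, Rrp9 and Utp18 did not pass within the second run (adjusted p from 0.057 to 0.456). Leaving out 1 number ended the call of Rrp9 (numbers 1, 2, 3 or 4, adjusted p up to 0.0739), Nop2 (1 or 2, up to 0.0709) and Polr1c (1 or 4, up to 0.0998), and gave calls for Nop10 (without 4 or 5) and Rrn3 (without 5 or 6). Against a minimum change of 1.5-fold, 2 genes were called higher and 6 lower. Macrophage, dendritic cell and CD8 and NK cell markers were higher in reactivated TH1 libraries, as given above.

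The response of TH1 cells was then set against that of naive cells, as the difference of both log2 fold changes. Of the 51 genes 45 passed the test (68% of all genes did). The response was smaller in TH1 cells for 43 and larger for 2, where 33.7% of all genes had a lower and 34.3% a higher value. The median difference was -0.76, against -0.00 over all genes. Of the 43 genes with the smaller response, 31 ended lower in reactivated TH1 than in activated naive cells, 7 ended higher and 5 had no call there. The difference of responses is by construction the stimulated comparison minus the effector comparison with naive cells. These counts are therefore no separate evidence, and a higher effector level alone can make the difference negative. Gnl3 had the largest negative difference (-1.58, SE 0.083, adjusted p = 1.62e-14). Nhp2 had -1.48, Rrp1b -1.33, Tsr1 -1.23, Polr1b -1.23 and Gar1 -1.22. Fbl had -1.19, Ncl -1.18, Npm1 -0.999, Polr1c -0.76, Dkc1 -0.75, Polr1e -0.39 and Rrn3 -0.18. The larger responses were those of Ubtf, given above, and Wdr12 (0.37, SE 0.063, adjusted p = 5.02e-05). No call was made for Polr1a, Nop10, Utp20, Utp6, Rrp9 and Ebna1bp2, and the 95% intervals of their differences lay within -0.35 to 0.36. Within the first run 45 genes were lower and 2 higher, and within the second 37 and 2. Ddx10, Lyar, Nle1, Polr1e, Rrn3 and Utp15 did not pass within the second run (adjusted p from 0.0688 to 0.446). Leaving out 1 number ended the call of Rrn3 (numbers 1, 2 or 4, adjusted p up to 0.171) and Lyar (1 or 4, up to 0.113), and gave a call for Ebna1bp2 (without 5 or 6). Against a minimum change of 1.5-fold, 27 were called lower and 1, Ubtf, higher.

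In TH1 effector cells against activated naive cells, 50 of 51 genes were lower and 1, Ubtf, was higher (41.2% and 45.6% of all genes). The median log2 fold change was -1.72, and in all 50 the libraries did not overlap, as in 33.2% of all genes. The largest deficits were those of Grwd1 (11.4-fold), Utp20 (9.83-fold), Nle1 (7.86-fold), Polr1b (7.32-fold), Heatr1 (7.33-fold) and Rrp9 (6.44-fold). Npm1 was the least reduced, 1.25-fold. The excess of Ubtf was 1.18-fold (log2 fold change 0.24, SE 0.064, adjusted p = 0.00105). Its call was lost within the first run (adjusted p = 0.0567) and without the libraries numbered 5 and 6 (adjusted p = 0.0689). These comparisons share groups: naive libraries enter both the activation response and the effector comparison, and activated naive libraries enter this one, the stimulated comparison and the activation response. TH1 effector libraries enter this one, the effector comparison and the reactivation response. Reactivated TH1 libraries enter the reactivation response and the stimulated comparison. The difference of responses uses all 4 groups.

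By median level alone, whether or not neighbouring groups differed past the test, the 51 genes fell into 5 orders. In 29 genes the order from low to high was naive, TH1 effector, reactivated TH1, activated naive, and in 11 it was the same with TH1 effector below naive. In 9 genes reactivated TH1 cells stood highest above activated naive, effector and naive cells, and 1 gene had that order with effector below naive. Ubtf alone had the order activated naive, TH1 effector, naive, reactivated TH1. Activated naive cells held the highest median in 40 genes and reactivated TH1 cells in 11. Past the test, 34 genes were lower and 10 higher in reactivated TH1 than in activated naive cells (36.4% and 43.4% of all genes).

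Outside the 51 genes, 109 further ribosome production genes in 5 lists were counted in the same way. On activation of naive cells 104 rose and 5 fell, where 41.3% of all genes tested rose and 40.5% fell. On reactivation of TH1 cells 103 rose and 3 fell, against 39.9% and 39.8%. The 109 genes had median log2 fold changes of 1.38 and 1.13, against 2.30 and 1.49 for the 51. In effector against naive cells 56 were higher and 38 lower (44.6% and 40.3% of all genes). In reactivated TH1 against activated naive cells 14 were higher and 68 lower (43.4% and 36.4%). Past the test, the difference of responses was negative in 63 and positive in 16 (33.7% and 34.3%), and the rest had no call. Within the lists, other RNA polymerase I genes rose in 8 of 10 on activation, from -0.59 in log2 for Ttf1, the termination factor, to 2.55 for Cd3eap, a polymerase I subunit. Other small subunit genes rose in 36 of 36, led by Rcl1 (2.79). Other large subunit genes rose in 40 of 43, led by Rrp15 (2.94), and Gltscr2 fell by 0.42. All 8 snoRNP assembly factors rose, led by Naf1 (2.84), which loads dyskerin, and all 12 nuclear exosome genes rose, led by Dis3 (1.85), a nuclease.

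On reactivation of TH1 cells, 9 of 10 other polymerase I genes rose, led by Tcof1 (1.67), which keeps ribosomal genes active. Small subunit genes rose in 35 of 36, from -1.09 for Riok1, an assembly kinase, to 2.46 for Pwp2. Large subunit genes rose in 41 of 43, led by Rrp15 (2.48), with Gltscr2 at -0.61. snoRNP assembly factors rose in 8 of 8, led by Znhit6 (2.51), and exosome genes in 10 of 12, led by Exosc2 (1.34). In effector against naive cells the ends of the lists were Taf1d (0.85) and Taf1c (-1.58), Riok1 (1.34) and Pwp2 (-0.9999), Rsl1d1 (0.98) and Urb1 (-1.69), Naf1 (2.04) and Znhit6 (-0.40), and Mphosph6 (1.94) and Exosc10 (-0.52). Taf1c and Taf1d belong to the selectivity factor of RNA polymerase I, so that factor held both ends of its list. In reactivated TH1 against activated naive cells the ends were Polr1d (0.41) and Cd3eap (-1.04), Utp11l (0.70) and Pwp2 (-1.08), Sbds (0.86) and Mdn1 (-1.34), Nhp2l1 (0.37) and Znhit6 (-0.43), and Mphosph6 (1.45) and Exosc10 (-0.46). In effector against activated naive cells they were Taf1a (-2.44), Riok1 (0.45) and Pwp2 (-3.54), Gltscr2 (0.71) and Urb1 (-3.56), Znhit6 (-2.94), and Mphosph6 (0.72) and Exosc10 (-1.52).

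The files also count Rn45s, the 45S precursor of ribosomal RNA. Rn45s lay from 1756 to 3919 CPM (median 2539) in naive and from 1290.1 to 2421 (median 1787) in activated naive libraries. It lay from 2599 to 5141 (median 3432) in TH1 effector and from 2009 to 3544 (median 2421) in reactivated TH1 libraries. Only the activated naive and TH1 effector groups did not overlap, and the stimulated medians were the lower ones. Rn45s was 1.41-fold lower after activation (log2 fold change -0.50, SE 0.156, adjusted p = 0.00376) and 1.42-fold lower after reactivation (log2 fold change -0.50, SE 0.156, adjusted p = 0.00381), and 1.40-fold higher in effector than in naive cells. Within the second run neither the reactivation difference (adjusted p = 0.201) nor the effector excess (log2 fold change 0.30, adjusted p = 0.117) passed. Ribosomal DNA is repeated, the files keep reads aligned to more than 1 place apart from all genes, and how library preparation handled ribosomal RNA is not stated, so these counts are no measure of polymerase I output.

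Myc, the regulator named above, rose in both responses, far more in naive cells. Myc ran from 57.8 to 81.1 CPM (median 63.8) in naive and from 793 to 1205 (median 1071) in activated naive libraries. It ran from 371 to 538 (median 476) in TH1 effector and from 508 to 654 (median 616) in reactivated TH1 libraries. Naive libraries stood far below all others, and the TH1 groups overlapped. Myc rose 15.8-fold on activation (log2 fold change 3.98, SE 0.115, adjusted p = 2.45e-20), was 7.10-fold higher in effector than in naive cells, and rose 1.29-fold on reactivation (log2 fold change 0.36, SE 0.115, adjusted p = 0.00300). The reactivation call was lost within the first run (adjusted p = 0.0868) and without numbers 5 and 6 (adjusted p = 0.10). The difference of the responses was -3.61 (SE 0.162, adjusted p = 3.43e-16). Max, the partner of MYC, had medians of 131, 108, 130.5 and 104 CPM in the order naive, activated naive, TH1 effector and reactivated TH1.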

How the data were processed

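RNA of sorted cells was sequenced in 24 libraries. The authors deposited whole-number read counts per gene symbol, not normalised, 1 file per library. STAR, HTSeq, DESeq2 and build mm10 are named, per the submitters' processing notes; which did what, the versions, the annotation and any strand setting are not stated. A stranded kit was used, per the labels' protocols. Lines for reads given to no gene (5 per file) stayed out of library sizes and tests. Reads without a feature came to 13.2 to 24.5% of all counts in a file, those lines included. Groups come from the titles, and the run from the flow cell in the deposited file names, which splits every group into numbers 1 to 3 and 4 to 6.

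R 4.3.3 with edgeR 4.0.16 (limma 3.58.1) was used on the counts: filterByExpr on the groups, TMM scaling, and 1 quasi-likelihood model with robust dispersions, with terms for group and run. P-values were adjusted by the Benjamini-Hochberg method over 12584 genes, with a threshold of 0.05. "Rose", "fell", "higher" and "lower" of a gene mean past that threshold where the groups are compared by a test. Levels are CPM on TMM library sizes. SEs and 95% intervals come from a linear model of log2 CPM (prior count 0.5) with the same terms. The code was tested on simulated counts. GENCODE M21 (GRCm38) gave exon lengths and overlaps, RefSeq the promoter windows.

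The 51 genes and the lists were chosen with earlier results of these data known. Named genes were, per comparison, the 6 largest rises and falls among the 51 past the threshold, those without a call (up to 8), the 6 polymerase I genes, Ncl, Npm1, Fbl and Dkc1, the ends of each further list, and Rn45s, Myc and Max. Further members described by role, such as Nob1, Pes1 and Bop1, and Polr3g lie outside that rule and were chosen after their values were seen. For 1 gene of the further lists, no value is reported here. Title numbers recur in all groups. The correlation of same-numbered libraries' deviations from their group means was 0.0755 to 0.379 over 36 pairs and above 0.1 in 35. The exception was 1 pair of naive and activated naive libraries. With run means also removed it was 0.0464 to 0.381, and above 0.1 in 32. The best match of a library in another group had its own number in 65 of 72 tests, and in 70 of 72 within runs. Libraries of 1 number thus deviate together, and what the numbers mark is not stated. The main fit does not pair them, and the replicate block does. No 2 libraries of a group were alike within sampling noise. Alternatives were other scalings and filters, the replicate block, no run term, single runs, fewer groups, a minimum change, leaving out each number, and DESeq2 1.42.0.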

Additional observations from a re-analysis of the deposited data

Results flagged for a closer look

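Of 208 sets of 6 libraries (each of the 51 genes in each group, and the summed levels), 11 had 1 library whose gap to the nearest other took a larger share of the range of log2 CPM than Dixon's critical value for 6 libraries. Chance gives about 1 in 20. Reactivated TH1 library 4 was the lowest for Rrp9 at 177 CPM against a median of 203 in the others (gap 0.697 of the range), Bysl at 132 CPM against a median of 149 in the others (gap 0.791 of the range), Bop1 at 183 CPM against a median of 214 in the others (gap 0.688 of the range), Rrp1b at 209 CPM against a median of 251 in the others (gap 0.696 of the range) and Nolc1 at 580.1 CPM against a median of 649.8 in the others (gap 0.626 of the range). TH1 effector library 4 was the highest for Utp20 at 68.6 CPM against a median of 57.9 in the others (gap 0.688 of the range), Utp15 at 66.6 CPM against a median of 58.8 in the others (gap 0.661 of the range) and Wdr43 at 207 CPM against a median of 181 in the others (gap 0.771 of the range). TH1 effector library 5 was the lowest for Rrp12 at 41.7 CPM against a median of 51.5 in the others (gap 0.670 of the range), and library 1 the highest for Bysl at 40.7 CPM against a median of 34.7 in the others (gap 0.665 of the range). Naive library 5 was the lowest for Bysl at 21.4 CPM against a median of 27.98 in the others (gap 0.777 of the range).

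The responses of TH1 and naive cells differed by a test of the difference itself (edgeR, adjusted p under 0.05) for these named genes, with the log2 fold change on reactivation minus that on activation in parentheses. It was positive for Ubtf (2.02) and Wdr12 (0.37). It was negative for Gnl3 (-1.58), Nhp2 (-1.48), Rrp1b (-1.33), Tsr1 (-1.23), Polr1b (-1.23) and Gar1 (-1.22), and for Fbl (-1.19), Ncl (-1.18), Npm1 (-0.999), Polr1c (-0.76), Dkc1 (-0.75), Polr1e (-0.39) and Rrn3 (-0.18). Among genes of the further lists it was positive for Ttf1 (0.90), Sbds (0.67), Emg1 (0.56), Exosc7 (0.37), Polr3gl (1.28) and Polr2g (0.78). It was negative for Myc (-3.61), Snhg4 (-2.93), Naf1 (-2.10), Riok1 (-1.98), Cd3eap (-1.87) and Mki67ip (-1.34), and for Polr2h (-0.98), Exosc8 (-0.61), Polr3k (-0.51) and Polr2d (-0.51).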

How the results depend on the processing

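Of 460 recomputed counts, medians and summed levels, 20 moved; of the named genes' fold changes, 3808 kept direction and side of the threshold, 88 lost a call, 36 gained one and 43 changed sign. Against a minimum change of 1.5-fold the calls fell, by construction, to 21 (20 higher, 1 lower) for effector against naive, 8 (2 and 6) for reactivated TH1 against activated naive, 28 (1 and 27) for the difference of responses, and 0 higher for effector against activated naive, the last also in the first run alone and without numbers 5 and 6, an alternative chosen after seeing the data. Scaling by library size only moved the medians of the 51 genes to 2.13 on activation, 1.37 on reactivation and -1.58 in effector against activated naive cells, and the summed level to 4933 CPM in naive and 22221 in activated naive cells. It moved the median of all genes by -0.14, -0.12 and 0.20 in those comparisons. Without numbers 5 and 6 the median for reactivated TH1 against activated naive was -0.43. Leaving out 1 number gave medians of 0.371 to 0.498 for effector against naive and summed naive levels of 4595 to 4685 CPM. The cause was not tested.

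Among the named genes, sign changes were confined to values that had no call in the fit with all libraries. They were Nop14 (0.00798, 0.00866, 0.0252, 0.039, and -0.074 to 0.0204 leaving out 1 number), Ddx10 (4.3e-05, 0.000269, 0.00279, 0.0142), Wdr12 (0.0127) and Max (-0.10, -0.0526, -0.0312, -0.014, and -0.0264 to 0.0439 leaving out 1 number) in effector against naive, Ncl (0.00279, 0.0215, and -0.0701 to 0.0132 leaving out 1 number) and Nop16 (-0.0197, -0.0101, -0.00223, and -0.00255 to 0.0432 leaving out 1 number) in reactivated TH1 against activated naive, and Nop10 (0.00571, 0.0409, 0.11, and -0.0516 to 0.0391 leaving out 1 number), Rrp9 (-0.0749, -0.0174, and -0.0204 to 0.19 leaving out 1 number), Polr1a (0.0638) and Rn45s (0.00478, 0.0372, 0.15, and -0.24 to 0.16 leaving out 1 number) in the difference of responses. With the replicate block, which pairs libraries by number, the calls were 51, 43, 51, 44, 51 and 45 (activation, effector against naive, reactivation, stimulated groups, effector against activated naive, difference of responses) and no call of a member changed; the medians were, in that order, 2.29, 0.470, 1.495, -0.319, -1.72 and -0.755. Depth limits the least abundant genes most, although all 51 were counted in every library.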

Other observations

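Of 9 subunits of RNA polymerase III, which makes 5S ribosomal RNA and transfer RNA, 7 rose and 1 fell on activation of naive cells. On reactivation 6 rose and 3 fell. Of all genes tested, 41.3% rose and 40.5% fell on activation, and 39.9% rose and 39.8% fell on reactivation. Polr3gl lay from 34.8 to 43.4 CPM (median 36.4) in naive and from 1.63 to 2.79 (median 2.10) in activated naive libraries. It lay from 18.5 to 27.0 (median 22.6) in TH1 effector and from 2.69 to 3.59 (median 2.86) in reactivated TH1 libraries. Polr3g ran from 13.7 to 17.7 CPM (median 15.7) in naive and from 25.3 to 37.6 (median 32.1) in activated naive libraries. It ran from 17.6 to 25.3 (median 22.3) in TH1 effector and from 40.3 to 53.8 (median 44.8) in reactivated TH1 libraries. Polr3gl and Polr3g encode alternative forms of 1 subunit, and their levels moved in opposite directions in both responses. Polr3gl fell by 4.17 on the log2 scale on activation (SE 0.124, adjusted p = 8.69e-21) and by 2.88 on reactivation (SE 0.124, adjusted p = 1.9e-17). Polr3g rose by 1.002 (SE 0.095, adjusted p = 2.33e-10) and 1.07 (SE 0.095, adjusted p = 6.92e-11). Among these 9, Polr3d had the largest rise in both responses (2.32 on activation and 2.09 on reactivation).

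The 5 subunits shared by the RNA polymerases rose in both responses, led by Polr2h (2.17) on activation and Polr2l (1.38) on reactivation. Of the 7 subunits specific to RNA polymerase II, 6 rose and 1 fell on activation, with medians of 0.47 and, on reactivation, 0.38. The 6 genes of RNA polymerase I and its factors had 1.58 and 1.32, but the 10 other polymerase I genes had only 0.89 on activation. Among 9 tested host genes of small nucleolar RNAs, 8 rose on activation and 7 on reactivation, and 8 were higher in effector than in naive cells. For all 3 sets the shares of all genes tested were 41.3% rising on activation, 39.9% on reactivation and 44.6% higher in effector cells. Snhg4 went from a naive median of 2.23 CPM to 34.7 on activation, and from 19.1 in TH1 effector cells to 40.9 on reactivation.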
